A study of Homo sapiens with 7 samples.

Results

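Gene symbols that look non-coding were followed through transcription, steady-state abundance and polysome loading in HCT116, an established human colon cancer cell line. The name rule takes symbols that begin with SNORA, SNORD, SCARNA, SNHG, RNU, RNY, RN7, MIR with a digit, MIRLET, LINC or LOC, or that end in -AS with or without a number, and it keeps those with a mean of at least 1 RPKM (mapped reads scaled to exon length and library size) in at least 1 assay. It matched 247 of 20072 listed symbols and left 117 members, out of 14305 genes that reached 1 RPKM somewhere. Members were thus chosen by name and by their mean RPKM in TR, RA and TA, and these levels are given as a description.

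All 7 libraries came from log-phase cells, split by the study into a portion for each assay and grown without serum, with epidermal growth factor, insulin and transferrin added. GRO-seq, in which engaged polymerases extend their RNA in isolated nuclei, measured the transcription rate (TR, 2 libraries). RNA-seq of purified mRNA measured the steady-state RNA abundance (RA, 3 libraries), and sequencing of mRNA from polysome fractions, taken after cycloheximide and with the nuclei spun out, measured the translation activity (TA, 2 libraries). The study calls the libraries of an assay biological replicates, but no separate cultures are named, so p-values measure only the spread between these libraries.

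Library sizes recovered from the RPKM steps were 3391897 and 5629982 reads in TR, 20299018 to 22532134 in RA and 22421062 to 30805391 in TA, so TR carries the fewest reads behind each value. The median gene of the fit fell from about 3.83 on the log2 scale in TR to between 3.12 and 3.18 in RA and between 2.62 and 2.69 in TA, and each member is best read against that shift. Of the colon epithelial markers, EPCAM, CDH1, KRT8, KRT18 and KRT19 were at 47.1 to 977 RPKM in RA, while VIL1 was at 6.7 RPKM in TR and 0.0118 in RA. Of the markers of blood, vessel, stromal or liver cells reported here, COL1A1 was at 17.6, 11.5 and 3.96 RPKM in TR, RA and TA, and PTPRC, CD3E, PECAM1, COL1A2 and ALB stayed at or below 0.303 RPKM.

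The name of the set promises small RNAs, and the data bore that out only in part. The rows analysed here held 0 symbols of the SNORA, SNORD, SCARNA, SNHG, RNY or RN7 classes and 0 microRNA hairpins. LOC symbols made up 107 of the 117 members, beside 4 RNU6 pseudogenes, 3 antisense genes, 2 LINC genes and 1 microRNA host gene. By RefSeq biotype, 70 members were pseudogenes, 26 were long non-coding RNAs (lncRNAs), 4 were snRNA pseudogenes, 14 were protein-coding and 3 had no entry. The set is therefore described as pseudogenes, lncRNAs and a few protein-coding genes under provisional names.

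As background, a processed pseudogene is a copy of a spliced mRNA that was written back into the genome, so it lacks introns and usually an intact reading frame. Other pseudogenes are duplicated genes that keep their exons and introns. An lncRNA is a transcript without a known reading frame, and many such RNAs are turned over in the nucleus by the exosome. A polysome is an mRNA with several ribosomes on it, so polysome RNA is enriched for RNAs under translation.

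Sequence is shared between several pseudogenes and the genes they copy, and 4 stretches are shown because they belong to pseudogenes with polysome signal. Each stretch is identical to the coding sequence of the namesake gene's spliced mRNA across an exon junction, and the bases in capitals come from the exon after the junction. The whole stretch stands together at the pseudogene but is split by an intron at the namesake gene. Sequence and positions are from the GRCh37 genome with GENCODE release 44, on the minus strand in each case.
MFFP2 (LOC644762), chr5:149311673-149311748, MFF exons 8 and 9: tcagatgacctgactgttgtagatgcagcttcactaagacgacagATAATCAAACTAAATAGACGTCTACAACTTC
NFYCP2 (LOC494127), chr9:89699876-89699948, NFYC exons 2 and 3: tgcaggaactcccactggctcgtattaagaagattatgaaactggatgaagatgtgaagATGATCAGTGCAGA
CHORDC1P4 (LOC727896), chr18:2946361-2946441, CHORDC1 exons 2 and 3: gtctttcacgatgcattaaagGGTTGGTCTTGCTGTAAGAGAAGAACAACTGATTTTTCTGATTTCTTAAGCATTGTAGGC
TNIP2P1 (LOC100132831), chrX:40691726-40691775, TNIP2 exons 3 and 4: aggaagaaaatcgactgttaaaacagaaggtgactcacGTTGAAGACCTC

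The 4 RNU6 pseudogenes are the only members named for a small RNA, and 3 of them are shown for that reason. U6 is the spliceosomal small nuclear RNA that pairs with the 5′ splice site through its ACAGAGA box, and the box is in capitals. The 3 shown lie on chromosome 13 and keep that box.
RNU6-66P, chr13:73687052-73687155, minus strand: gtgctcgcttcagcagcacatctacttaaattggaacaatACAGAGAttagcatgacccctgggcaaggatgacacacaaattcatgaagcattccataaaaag
RNU6-78P, chr13:26091257-26091363, plus strand: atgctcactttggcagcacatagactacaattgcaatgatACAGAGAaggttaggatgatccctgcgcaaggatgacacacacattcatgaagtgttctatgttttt
RNU6-79P, chr13:73455246-73455352, minus strand: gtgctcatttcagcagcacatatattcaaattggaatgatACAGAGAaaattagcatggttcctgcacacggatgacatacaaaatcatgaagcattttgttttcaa
Over the alignment to the RNU6-1 gene, 84.1% of positions were identical in both RNU6-66P and RNU6-78P, and 78.4% in RNU6-79P.

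Most members were seen in nascent RNA and little beyond it. Of the 117 members, 72 (61.5%) reached 1 RPKM in TR only, 16 in TR and RA, 23 in all 3 assays and 6 in RA or TA without TR. Among the 14188 other genes that reached 1 RPKM somewhere, 18.0% did so in TR only and 76.1% in all 3 assays. Of the members at 1 RPKM in TR, 35.1% also reached it in RA and 20.7% in TA, against 81.3% and 76.4% of all genes. These members also started nearer to the threshold, with a median TR of 6.34 RPKM against 14.4 for all genes at 1 RPKM in TR. The shares were not matched for that level.

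**Figure D1:**
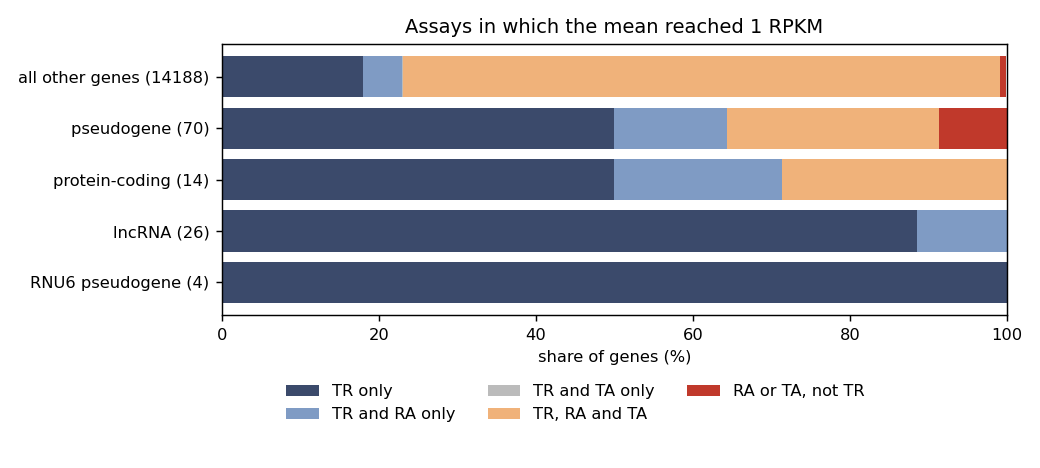
Share of genes (x axis, in percent) whose mean reached 1 RPKM in each combination of assays, for 4 kinds of member and for all other genes at 1 RPKM somewhere (y axis, number of genes in parentheses). TR only takes 23 of 26 lncRNAs and 35 of 70 pseudogenes, whereas it takes 18.0% of other genes.

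The kinds of RNA differed in how often they reached the steady-state and polysome RNA. None of the 26 lncRNAs reached 1 RPKM in TA, where the highest was ATP8B1-AS1 (LOC100505549) at 0.864 RPKM, and 3 of them reached it in RA. Among the 70 pseudogenes, 34 reached 1 RPKM in RA and 25 in TA, with TA of up to 57.7 RPKM. Of the 14 protein-coding members, 7 reached it in RA and 4 in TA. The 4 RNU6 pseudogenes and the 3 members without an entry reached it in TR alone.

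The share of reads was then summed by kind. Members took 0.241% and 0.267% of the reads of the TR libraries, 0.0565% to 0.063% in RA and 0.0411% to 0.0482% in TA. For lncRNAs the share went from 0.077% and 0.0766% in TR to at most 0.00235% in RA and 0.000721% in TA. For pseudogenes it went from 0.102% and 0.111% in TR to between 0.0477% and 0.0553% in RA and between 0.038% and 0.0441% in TA. A single pseudogene, LOC100130331, took 42.0% and 45.4% of the pseudogene reads in the TA libraries but 0.895% and 0.207% in the TR libraries. It could not be placed on the genome sequence used here, so sequence that it may share with other genes was not checked.

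RNA stability, indexed in the study by RA over TR, had a median log2 value of -3.02 over the 105 members above 0 in both assays, with a range of -3.04 to -2.81 over single libraries. The median over all genes was -0.54. By kind it was -5.67 for lncRNAs (-5.40 to -4.98 over single libraries), -3.29 for protein-coding members (-4.40 to -2.53) and -1.92 for pseudogenes (-2.25 to -1.69). Members at 0 in a single library drop out of its median. By symbol class it was -2.87 for LOC symbols, -4.48 for the 2 LINC genes, -5.67 for the 3 antisense genes and -5.45 for the 1 RNU6 pseudogene that was above 0 in RA. The rule leans these medians down, since 72 of the 117 members, and 23 of the 26 lncRNAs, passed it in TR only, against 18.4% of all genes. Among genes at 1 RPKM in all 3 assays the median was -0.74 for 23 members, with no lncRNA among them, and -0.14 for all genes. In bulk RNA, fewer cells with an RNA and less of it per cell cannot be told apart.

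Translation, indexed by TA over RA, had a median log2 value of -1.23 over 96 members, against -0.47 over all genes. Here the kinds stood close together, at -1.35 for lncRNAs, -1.34 for protein-coding members and -1.17 for pseudogenes, and at -1.22 for LOC symbols, -0.65 for LINC genes and -3.14 for antisense genes. Most lncRNA values in RA and TA rest on few reads.

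**Figure D2:**
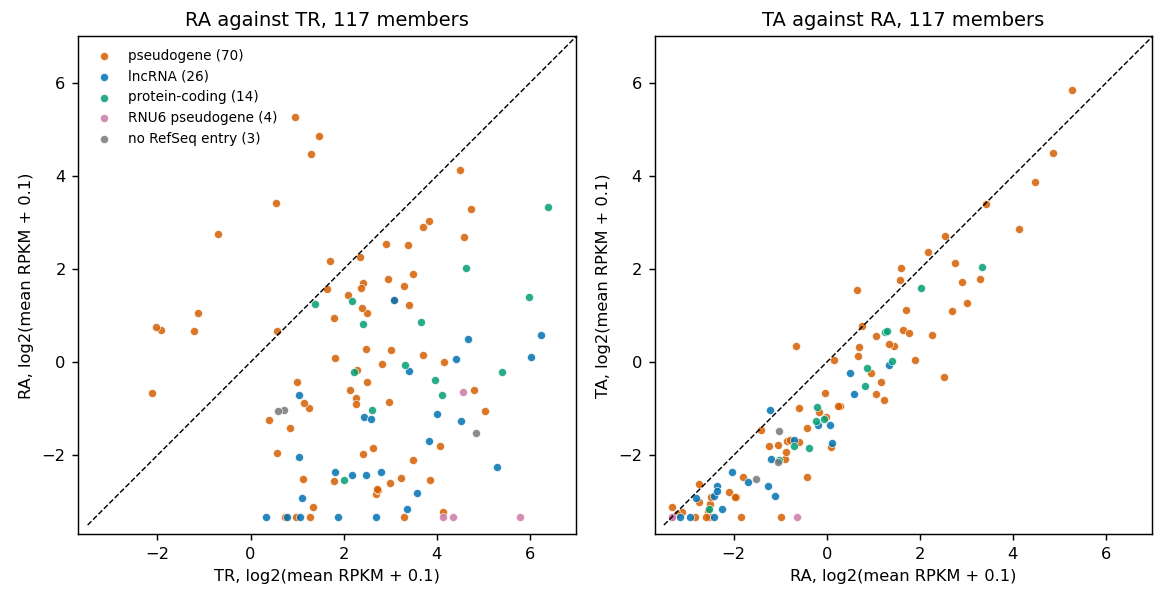
Mean level of each of the 117 members, as log2(RPKM + 0.1), in RA against TR (left) and in TA against RA (right), coloured by kind, with the line of equal values dashed. On the left most points lie below the line and a small group of pseudogenes lies well above it, whereas on the right the points follow the line from slightly below.

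The lncRNAs with the highest TR had little RA or TA. LOC730183 had the highest lncRNA level in TR, at 65.9 and 85.1 RPKM, with 1.86, 0.991 and 1.34 in RA and 0.669 and 0.383 in TA. HMGA2-AS1 (LOC100129940), which lies within HMGA2, a gene of a chromatin architectural protein, on the opposite strand, had 70.5 and 59.9 RPKM in TR, 1.15, 0.823 and 0.973 in RA and 0.185 and 0.21 in TA. In both genes every TR library was above every RA library. HMGA2 itself was at 88.7, 59.0 and 25.0 RPKM in TR, RA and TA. Of the exon bases of the antisense gene, 6.4% lay in HMGA2 exons and 100% within the HMGA2 gene. The library kit is not stated to keep strand, so reads of this pair cannot be told apart.

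The 3 genes named as antisense had the same shape. RUSC1-AS1 was at 39.1 and 40.0 RPKM in TR, at 0.226, 0.102 and 0 in RA and at 0.0249 and 0 in TA. Across from it, FDPS, which makes farnesyl diphosphate for sterol synthesis, was at 75.0, 105 and 166 RPKM. DPP9-AS1 was at 14.9 and 17.1 RPKM in TR, 0.401, 0.405 and 0.285 in RA and 0.0423 and 0.029 in TA, while DPP9, a dipeptidyl peptidase gene on the other strand, was at 18.5, 25.3 and 19.6. C1QTNF9B-AS1 was at 4.56 and 4.32 RPKM in TR and at most 0.163 in any other library. The unknown strand of the libraries matters here too. Of the exon bases, 51.8% in DPP9-AS1 and 64.8% in C1QTNF9B-AS1 lie in exons of the partner gene. For RUSC1-AS1, 62.4% of exon bases lie within FDPS and 31.2% within RUSC1. Reads of these pairs therefore cannot be told apart.

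The LINC genes and the microRNA host gene were low throughout. LINC00452 was at 1.28 and 2.65 RPKM in TR and at most 0.249 in RA and 0.162 in TA. LINC01272 was at 2.93 and 3.89 RPKM in TR and at most 0.147 in RA and 0.0666 in TA. MIR1-1HG, the host of a muscle microRNA, was at 2.66 and 0.582 RPKM in TR and listed at 0 in all RA and TA libraries. A listed 0 may be a failed count, since EIF4A1, a translation factor gene that dividing cells use, is also listed at 0 in every library.

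The RNU6 pseudogenes were seen in TR and hardly elsewhere. RNU6-71P was at 50.3 and 60.7 RPKM in TR, RNU6-66P at 18.9 and 15.9, RNU6-78P at 29.5 and 17.8 and RNU6-79P at 25.3 and 15.2. In RA and TA they were listed at 0, apart from RNU6-78P at 1.62 RPKM in RA 3. Their short exons turn few reads into high RPKM, because all 4 together held at least 18 and 27 reads in the TR libraries and 1 read in RA 3. The gene around RNU6-71P, CCDC169, was listed at 0 in TR, and that of RNU6-79P, PIBF1, was at 10.3 RPKM.

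Protein-coding members under old LOC names were also mostly nascent. MRFAP1L2 (LOC93622) had the highest TR level of any member, at 66.5 and 101 RPKM, with 13.5, 8.04 and 8.43 in RA and 2.96 and 5.13 in TA. B3GALT9 (LOC100288842), named as a galactosyltransferase, was at 54.1 and 71.6 RPKM in TR, 3.46, 2.59 and 1.59 in RA and 0.835 and 0.995 in TA. REXO5 (LOC81691), an RNA exonuclease gene, was at 21.3 and 28.2 RPKM in TR, 4.45, 2.98 and 4.55 in RA and 1.89 and 3.91 in TA. In each of the 3, no RA or TA library reached the level of a TR library.

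The rule used the levels, so RA and TR were compared by test only in part of the set. These were the 29 members whose mean reached 1 RPKM in TA, the assay outside the contrast. RA and TA are both read from mRNA, so this choice can still favour RA over TR, in members as in all genes. Limma on log2(RPKM + 0.1) over all 14305 genes called 10 of the 29 higher and 10 lower in RA than in TR at a Benjamini-Hochberg adjusted p under 0.05. Among all genes with TA of at least 1 RPKM, 24.9% were called higher and 33.9% lower against 34.5% of members in each direction, a difference that was not tested. With each library centred on its median, 11 members (37.9%) were called higher and 5 (17.2%) lower, against 46.0% and 17.1% of all genes. Without TR replicate 2 the lower calls numbered 5 (17.2% of members, 22.3% of all genes), and without TR replicate 1 they numbered 6 (20.7% and 25.3%). Where 1 RPKM was required in each assay, 4 of 23 members were higher, so that their 17.4% lay below the 24.3% of all genes.

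The 29 tested members held 25 pseudogenes and 4 protein-coding genes and no lncRNA, and the 10 that were higher in RA were all pseudogenes. Their TR means were 0.129 to 2.69 RPKM, their RA means 0.535 to 38.4 and their TA means 1.15 to 57.7. The 6 members that passed the rule in RA or TA without TR were all among these 10. Their calls are thus partly set by the rule. LOC100130331 was at 2.92 and 0.739 RPKM in TR, at 30.2, 37.4 and 47.5 in RA and at 51.2 and 64.1 in TA. RA exceeded TR in this gene by 4.57 ± 0.48 (SE) on the log2(RPKM + 0.1) scale (limma, adjusted p = 6.7e-05), and no library of RA overlapped one of TR. LOC440311 was at 3.81 and 1.57 RPKM in TR, 22.5, 36.9 and 27.7 in RA and 20.4 and 24.2 in TA. It differed between RA and TR by 3.48 ± 0.36 (limma, adjusted p = 6.7e-05). Leaving out TR replicate 1 or TR replicate 2 gave 5.49 and 3.64 for LOC100130331 and 4.10 and 2.87 for LOC440311.

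LOC407835 followed with 3.59 and 1.13 RPKM in TR, 20.7, 24.4 and 21.6 in RA and 13.7 and 15.2 in TA (log2 difference 3.38, limma adjusted p = 0.00014). MFFP2 (LOC644762), a copy of the mitochondrial fission factor gene MFF, was at 0.365 and 0.66 RPKM in TR, 4.7, 8.08 and 7.2 in RA and 3.96 and 4.59 in TA (log2 difference 3.47, limma adjusted p = 3.3e-05). These 2 were again without overlap between RA and TR. LOC728739 was at 0 and 0.286 RPKM in TR, 1.27, 2.43 and 1.09 in RA and 1.51 and 1.72 in TA (log2 difference 3.03, limma adjusted p = 0.0016). Its TR values rest on 0 and 1 recovered reads. Its difference was 1.16 with a pseudocount of 1 and 4.79 with a pseudocount of 0.01. It was 2.06 without TR replicate 1 and 4.0 without TR replicate 2, and that of LOC407835 was 4.17 and 2.59. The other 5 were SAE1P1 (LOC341056), LOC646214, TNIP2P1, NFYCP2 and LOC644936, with log2 differences of 1.63 to 3.03. LOC644936, at 0 and 0.257 RPKM in TR and 0.606, 0.225 and 0.775 in RA, was the 1 of the 10 with overlapping libraries. MFFP2 held 2 and 6 recovered reads in the TR libraries, TNIP2P1 1 and 2, NFYCP2 3 and 0 and LOC644936 0 and 2. Their differences thus rest on few TR reads.

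The 10 members that were lower in RA held 8 pseudogenes and 2 protein-coding genes. MRFAP1L2 fell by 3.06 on the log2 scale (SE 0.33, limma adjusted p = 7.7e-05) and REXO5 fell by 2.61 (adjusted p = 0.00024). ARHGAP27P1 (LOC146880), a copy of a GTPase-activating protein gene, was at 23.3 and 24.8 RPKM in TR, 5.24, 7.05 and 6.76 in RA and 1.78 and 2.3 in TA (log2 difference -1.92, limma adjusted p = 0.00011). LOC729218 was at 7.71 and 9.13 RPKM in TR and 1.86, 2.4 and 3.05 in RA (log2 difference -1.77, limma adjusted p = 0.00059). LOC389906 was at 7.24 and 12.1 RPKM in TR and 2.09, 3.84 and 3.12 in RA (log2 difference -1.64, limma adjusted p = 0.0023). The remaining 5 were RNF4BP, NPEPPSP1, SMPD4BP, WASH8P and WDR5CP, which lost between 0.73 and 1.48 on the log2 scale.

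**Figure D3:**
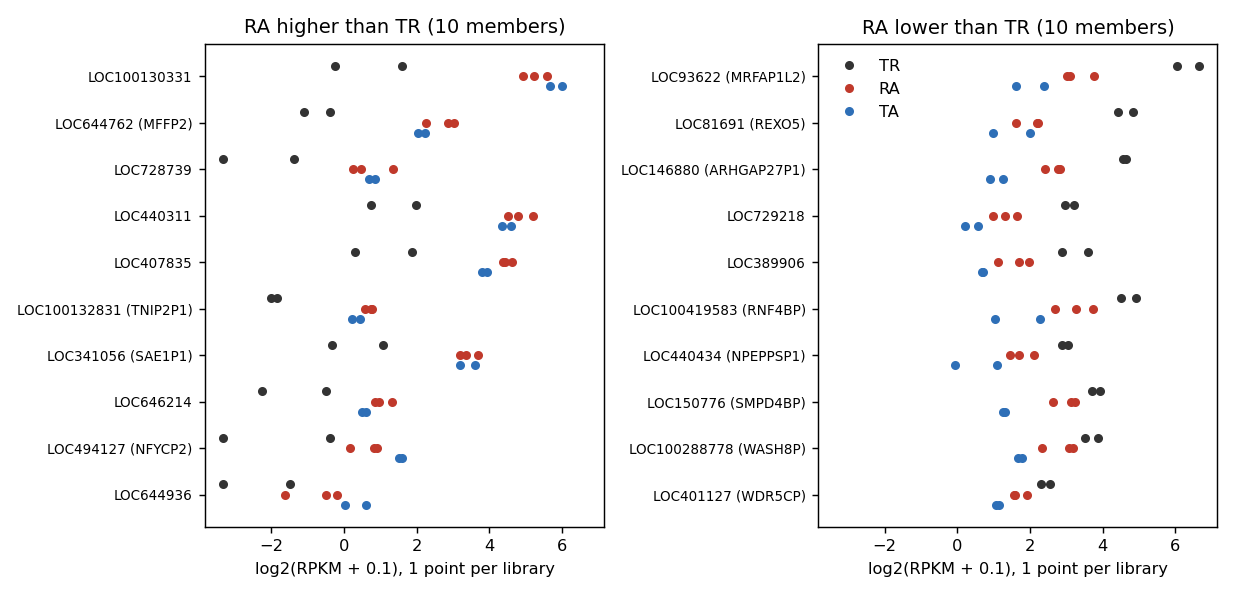
Level in each library, as log2(RPKM + 0.1), of the 10 members called higher (left) and the 10 called lower (right) in RA than in TR, with TR in black, RA in red and TA in blue. On the left TA lies above TR in every member, and RA does so too except for a library of LOC644936. On the right the mean is highest in TR and lowest in TA. Single libraries can differ, as REXO5 had 3.91 RPKM in a TA library and 2.98 in an RA library.

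TA was compared with RA in the 111 members at 1 RPKM in TR. Limma called 39 of them (35.1%) lower in TA and 0 higher, against 29.3% lower and 6.67% higher among all genes with TR of at least 1 RPKM. At an unadjusted p under 0.05, 54 were lower and 0 higher. The lower calls held 27 pseudogenes, 7 lncRNAs and 5 protein-coding genes. Some rest on few reads, as the lncRNA LOC100129083 was called (limma adjusted p = 0.024) with 4 recovered reads over RA and TA. With a pseudocount of 1, 26 members were lower, and their 23.4% lay below the 25.2% of all genes. After centring of the libraries 14 members were lower, 12.6% against 9.89% of all genes. Without TA replicate 1 there were 16 (14.4%, against 12.7% of all genes). Without TA replicate 2, TR replicate 1 or TR replicate 2 there were 25 each (22.5%, 23.4% and 23.1%, against 20.1%, 21.6% and 21.7%).

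LOC155060, a pseudogene, showed the widest fall of the 111 on the fitted scale. It was at 11.3 and 9.46 RPKM in TR, 4.83, 7.13 and 4.87 in RA and 0.865 and 0.537 in TA, and TA fell by 2.84 below RA on the log2 scale (SE 0.28, limma adjusted p = 0.0025). LOC100128076 was at 0.539, 0.441 and 0.242 RPKM in RA and listed at 0 in both TA libraries (limma adjusted p = 0.0035). CEP192P1 (LOC643201), a copy of a centrosome gene, was at 0.574, 0.641 and 0.714 RPKM in RA and 0.0681 and 0.0935 in TA (log2 difference -2.04, limma adjusted p = 0.0026). PDCD6P1 (LOC728613) was at 0.918, 0.81 and 1.17 RPKM in RA and 0.139 and 0.225 in TA (log2 difference -1.92, limma adjusted p = 0.004). DPP9-AS1, whose values stand above, fell by 1.76 (limma adjusted p = 0.0034).

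At the other end, LOC100130331 had every TA library above every RA library, but its log2 difference of 0.60 did not pass (SE 0.48, limma adjusted p = 0.36). For the 10 pseudogenes higher in RA than in TR the log2 ratio of TA to RA lay between -0.64 and 1.13, with a median of -0.20. For the 10 members lower in RA it lay between -1.79 and -0.46, with a median of -1.20. These are descriptions, since both groups were set by RA.

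Pseudogenes were then set beside the gene whose name they carry. A namesake was listed for 27 of the 70 pseudogenes, and the pseudogene was below it in 22 pairs in TR and in 25 pairs in both RA and TA. A total of 23 pairs had a namesake at 1 RPKM in all 3 assays. In these the pseudogene's level, as a share of the namesake's, was lower in RA than in TR in 18 and higher in 5. The rule acts on the pseudogene alone, so a pseudogene kept by TR only leans to a lower share in RA. A pseudogene kept by RA and TA without TR, as were MFFP2, NFYCP2 and TNIP2P1, leans the other way. The split is thus a description. ACTG1P25 (LOC148709), a copy of the cytoplasmic actin gene ACTG1, was at 0.613% of ACTG1 in TR and 0.00885% in RA. LCMT1P1 (LOC554206), a copy of a carboxyl methyltransferase gene, was at 207% of LCMT1 in TR and 1.89% in RA. SDHAP4 (LOC220729), a copy of a succinate dehydrogenase subunit gene, was at 63.3% of SDHA in TR, 8.58% in RA and 1.56% in TA.

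The 5 pairs that went the other way included 4 of the 10 pseudogenes called higher in RA. MFFP2 was at 3.05% of MFF in TR, 22.9% in RA and 26.6% in TA. SAE1P1, a copy of a subunit gene of the SUMO-activating enzyme, was at 3.82%, 10.7% and 10.2% of SAE1. NFYCP2, a copy of a subunit gene of the CCAAT-binding factor NF-Y, was at 2.39%, 7.83% and 8.83% of NFYC. TNIP2P1, a copy of a gene in NF-kappa-B signalling, was at 0.88%, 5.89% and 7.34% of TNIP2. The fifth, CHORDC1P4, a copy of an HSP90 co-chaperone gene, was at 14.1%, 21.4% and 25.0% of CHORDC1, with 3.72 and 2.66 RPKM in TR, 6.29, 3.25 and 3.77 in RA and 5.31 and 4.81 in TA.

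**Figure D4:**
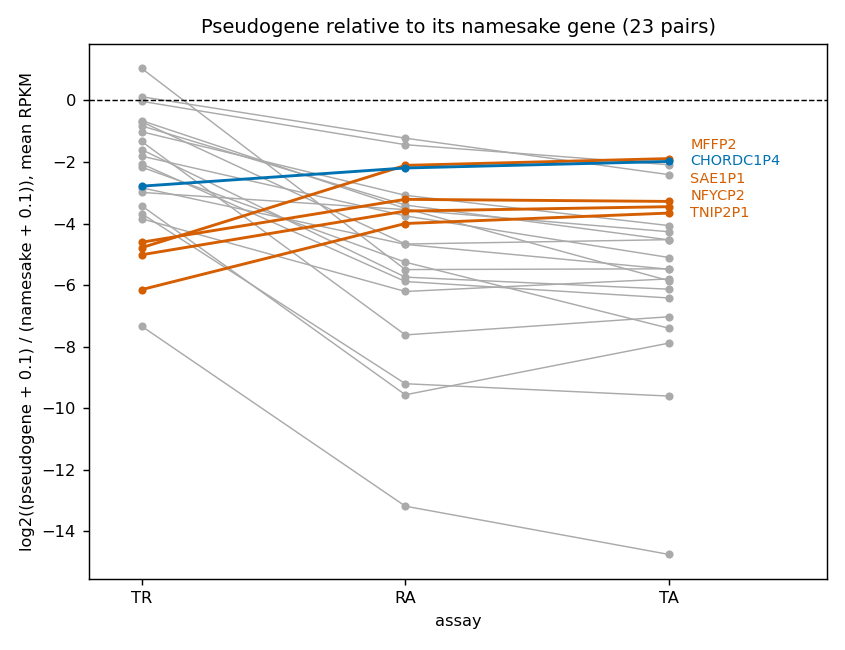
Level of each pseudogene relative to its namesake, as log2((pseudogene + 0.1) / (namesake + 0.1)) of mean RPKM, in TR, RA and TA (x axis) for 23 pairs, 1 line per pair. Orange lines are the 4 pseudogenes called higher in RA than in TR, the blue line is CHORDC1P4, the grey lines are the other pairs, and 0 is equality.

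Of those 5, the 4 that could be placed on GRCh37 are the pseudogenes whose stretches are printed above. Among 61 members placed, 6 had windows of 50 bases that occurred once in the genome, at the member, and also in the spliced transcript of another gene: 74 windows in CHORDC1P4, 32 in MFFP2, 20 in CCNYL6 (LOC641367), 14 in NFYCP2, 8 in FHL1P1 (LOC100128164) and 1 in TNIP2P1. As a share of all windows of the member, these were 5.7% in CHORDC1P4, 5.3% in MFFP2, 1.5% in NFYCP2 and 0.8% in CCNYL6. In FHL1P1 and TNIP2P1 they were 0.1%. CCNYL6 was at 1.64 and 2.57 RPKM in TR and at most 0.544 in RA, and FHL1P1 at 1.35 and 2.03 in TR and at most 0.392 in RA. The part of such windows in the RA and TA values was not tested. MFFP2 lies within an intron of PDE6A, whose exons were at 2.24, 0.0139 and 0.0165 RPKM in TR, RA and TA, against 0.513, 6.66 and 4.27 for MFFP2, so the gene around it was higher in TR and lower in RA and TA.

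Repeated sequence touched other members too. Of the 61 placed members, 39 had windows that also occur elsewhere in the genome, and 8 had them over more than 50% of their exons, among them WASH8P at 79.0%, ANAPC1P2 at 78.2%, LSP1P4 at 65.7% and NPEPPSP1 at 51.4%. Their levels are uncertain, since reads may be split between copies. LOC100130331, LOC440311, LOC407835 and SAE1P1 were not placed, so their shared sequence, and its part in their RA and TA values, was not tested. Exons of 21 placed members overlap exons of another gene, and 24 lie for more than 50% within another gene.

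Near the threshold, the members just inside were LOC100506388 at a highest mean of 1.16 RPKM, LOC644936 at 1.17 and LOC645752 at 1.21. The symbols just outside were LOC388780 at 0.955, LOC643387 at 0.782 and LOC101928093 at 0.769 RPKM.

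The machinery around such RNAs was read from lists of its genes. Their calls stand beside 24.9% higher and 33.9% lower in RA than in TR among genes with TA of at least 1 RPKM, and 6.67% higher and 29.3% lower in TA than in RA among genes with TR of at least 1 RPKM. Of 22 expressed protein-coding genes that host snoRNAs in their introns, 16 were higher and 0 lower in RA than in TR, with a median log2 RA/TR of 1.27 (-0.54 over the 14122 genes above 0 in both assays). EEF2, the elongation factor gene, was at 175, 1260 and 876 RPKM in TR, RA and TA, and RPL3 at 190, 1070 and 631. In TA against RA 6 of the 22 were lower and 0 higher (median -0.62). Among 7 snoRNP core protein genes, 3 were higher in RA than in TR and 0 lower, among them the methyltransferase gene FBL, at 42.1, 194 and 200 RPKM.

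Of 7 microRNA processing genes, 3 were lower in RA than in TR and 5 were lower in TA than in RA, with 0 higher in either. XPO5, the exporter of microRNA precursors, was at 39.7, 36.1 and 43.9 RPKM and passed in neither contrast. TARBP2, a partner of DICER1, went from 57.3 to 18.2 and 9.67 RPKM, AGO2, the slicing Argonaute, from 34.0 to 21.6 and 6.67, and DGCR8, which partners DROSHA, from 47.4 to 9.31 and 2.69. Of 10 nonsense-mediated decay genes, 1 was higher and 5 lower in RA than in TR, and 1 higher and 3 lower in TA than in RA. The 15 nuclear exosome genes split into 4 higher and 4 lower in RA and into 5 higher and 0 lower in TA, where EXOSC7 went from 43.6 to 113 RPKM. Of 19 named lncRNAs outside the name rule, 1 was listed, CRNDE, at 5.56, 3.0 and 1.09 RPKM, and 0 of 6 short RNAs of RNA polymerase III or RNase complexes were listed.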

How the data were processed

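HCT116 RNA was measured by GRO-seq (2 libraries), RNA-seq (3) and polysome profiling (2). The authors mapped reads to hg19 with TopHat at default settings, took exon reads from HTSeq-count and scaled them to the RPKM that they deposited. The versions, gene annotation, strand setting and treatment of multiply mapped reads are not given in the sources used here. RA and TA RNA was purified with an mRNA kit and run-on RNA with anti-BrdU beads, so assay and preparation cannot be told apart, and RNAs without a poly(A) tail can be lost from RA and TA.

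Libraries were grouped by their labels. Whole reads were recovered from the RPKM steps (100% of values whole within 0.01 of a read) and used only for depth and for a minimum of 20 reads. Exon lengths recovered this way are the smallest that fit, so reads of sparse genes are minima. Genes with a mean of at least 1 RPKM in some assay were tested with limma 3.58.1 in R 4.3.3 on log2(RPKM + 0.1), with a trend in eBayes, a single fit of the 7 libraries and p-values adjusted by Benjamini-Hochberg across 14305 genes (threshold 0.05). The scripts were tested on simulated data. On this scale changes of low genes are understated. Class medians used ratios of means, without genes at 0 in either assay.

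RefSeq (GRCh38.p14, names only) matched 114 of 117 members, 48 by symbol, 63 by gene ID and 3 by older symbol. GENCODE release 44 on GRCh37 placed 61. Windows of 50 bases were compared with the GRCh37 genome and GENCODE transcripts. The namesake is the listed gene whose symbol is the pseudogene's without its final P and number.

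The members and gene lists were chosen with earlier results of these data known. Named members are all those of the RNU and microRNA host classes, the 3 highest in each assay in the other classes, the 5 highest and 5 lowest of each contrast among tested members with 20 reads and no overlap of libraries, and the 3 on either side of the threshold. Highest and lowest of a contrast were ranked by the log2 ratio of means, not by the fitted difference. The other members named were chosen after their values were seen. They are those with a namesake, a repeat, an overlapping gene, a call or a high level within a kind. The alternatives were other pseudocounts, filters, thresholds, scalings, fits and subsets of members, a replicate block and leaving out each library. A few genes and 1 sequence that the rules would name are not reported here, although the genes stay in the counts.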

Additional observations from a re-analysis of the deposited data

How the results depend on the processing

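The log2 differences of the members named as highest and lowest of each contrast kept their direction and their side of the threshold under every alternative run for them. Those of the other named members were not recomputed one by one, and the counts show that some lower calls were lost. Shares of all genes under the same setting stand in parentheses where they were computed. The subset without exon overlap, here and below, holds only placed members with no exon bases in exons of another gene. Members that were not placed were left out of it as well. Of the members higher in RA than in TR, 4 of 23 were called with at least 1 RPKM required in each assay (24.3%), 6 of 18 at a threshold of 2 RPKM (27.1%) and 3 of 9 without exon overlap. Of those lower in RA, 22 of 45 were called at 0.5 RPKM (36.4%), 5 of 29 after centring of the libraries (17.1%) and 2 of 9 without exon overlap. Of those lower in TA than in RA, 10 of 23 were called with at least 1 RPKM in each assay (29.8%), 14 of 111 after centring (9.89%), 25 from the 2 assays alone (21.7%) and 14 of 37 without exon overlap. Leaving out 1 library gave 9 to 10 higher and 5 to 13 lower in RA, and 0 higher and 16 to 41 lower in TA. A lone library of an assay is assumed to vary like the others.

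With the replicate number as a block, 8 members were higher (27.6%, against 18.8% of all genes) and 7 lower (24.1% and 26.7%) in RA than in TR, and 15 were lower in TA than in RA (13.5% and 9.5%). The study split its cells between the assays, but the labels do not say that a number marks a shared culture or day. Deviations of same-numbered libraries correlated at 0.149 between TR and RA, 0.02 between TR and TA and -0.562 between RA and TA over 10825 genes, so pairing by number is not shown and the block was kept as an alternative.

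The RA/TR medians had these values under settings that moved them. With a pseudocount of 0.01 they were -3.05 for LOC, -10.88 for RNU6 and -2.22 for pseudogenes. With 0.1, added after the data were seen, as were the medians by biotype, they were -7.56 for RNU6, -5.12 for antisense and -4.49 for lncRNAs. With 1 they were -1.69 for LINC, -1.73 for LOC, -4.31 for RNU6, -3.64 for antisense, -2.35 for protein-coding, -2.64 for lncRNAs and -1.38 for pseudogenes. Geometric means gave -2.64 for LOC and -5.01 for lncRNAs. A threshold of 2 RPKM gave -3.11 for LOC and -2.25 for pseudogenes, and one of 0.5 gave -5.46 for lncRNAs. Centring gave -2.20 for LOC, -4.78 for RNU6, -5.00 for antisense, -5.00 for lncRNAs and -1.25 for pseudogenes. Without exon overlap they were -1.93 for LOC and -4.17 for lncRNAs.

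The TA/RA medians with a pseudocount of 0.01 were -2.41 for antisense. With 0.1 they were -0.79 for LOC, -0.90 for antisense, -1.06 for protein-coding, -0.59 for lncRNAs and -0.71 for pseudogenes, and with 1 they were -0.30, -0.13, -0.43, -0.10 and -0.28. Centring gave -0.72 for LOC, -0.84 for protein-coding, -0.86 for lncRNAs and -0.68 for pseudogenes. Without exon overlap they were -0.71 for lncRNAs and -1.36 for pseudogenes. The cause of these shifts was not tested.

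Leaving out 1 library, the RA/TR medians ran from -4.87 to -4.06 for LINC, -2.92 to -2.74 for LOC, -5.77 to -4.86 for RNU6, -6.50 to -5.31 for antisense, -3.62 to -3.04 for protein-coding, -5.64 to -5.31 for lncRNAs and -2.20 to -1.80 for pseudogenes. The TA/RA medians ran from -1.43 to -0.26, -1.25 to -1.01 and -3.65 to -2.04 for LINC, LOC and antisense, and from -1.61 to -0.98, -1.41 to -1.17 and -1.17 to -0.91 for protein-coding, lncRNAs and pseudogenes. Depth limits low members most, as 8 of the 117 had under 20 reads over all libraries.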
